A study of Mus musculus with 12 samples.

Results

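LINC01134 is a long non-coding RNA gene on the short arm of chromosome 1, and its RNA level was raised on purpose in one group of the libraries described here. It was followed together with 8 named genes around it (C1orf174, DFFB, LRRC47, SMIM1, TP73, WRAP73, TPRG1L and AJAP1), which makes 9 of the 58735 genes measured. The members were found by their full gene names and checked against the position listed for each gene. The comparison asks whether the RNA of the neighbours changed in the cells that overexpressed LINC01134.

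RNA was sequenced from U2OS, a human osteosarcoma cell line, in 12 libraries that form 4 groups of 3: blank cells, cells overexpressing LINC01134 (OE-LINC01134), and cells given one of a pair of siRNAs against the splicing factor SRSF1 (siSRSF1-2 and siSRSF1-3). The blank cells are labelled only as blank U2OS cells, and the sources used here name no empty vector or control siRNA for them. Each difference from blank may therefore hold the delivery together with the intended change. How LINC01134 was overexpressed (vector, promoter, single clone or pool) and whether replicates were separate cultures is not given in the sources used here. The study's methods name biological replicates, but their number per condition differs from the 3 libraries of each group here. A figure legend of the study does name 3 experimental repeats for the SRSF1 knockdown against blank cells. The p-values measure the spread between these libraries, which may be technical. The sample labels name mouse as the organism, but all genes carry human Ensembl identifiers, and the study's methods place transient transfection in HOS, another osteosarcoma line.

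Long non-coding RNAs are transcribed but not translated into protein. Some act at the site where they are made and change the genes next to it, and others act elsewhere in the cell. Many start close to the promoter of a coding gene that is read in the opposite direction, so that both share one stretch of open DNA. RNA made from an introduced copy of such a gene is not made at the gene's own site.

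The files list LINC01134 (ENSG00000236423) on the plus strand of chromosome 1, from 3900372 to 3917225, in a genome build that the sources used here do not name for human. C1orf174 lies on the minus strand from 3889125 to 3900293, so that the starts of both genes face each other with 78 bases between them. DFFB follows on the plus strand (3857267 to 3885429), 14.9 kb before the start of LINC01134. LRRC47 (3778558 to 3796504) and SMIM1 (3772761 to 3775982) lie 103.9 and 124 kb away. TP73 (3652520 to 3736201), WRAP73 (3630767 to 3652761) and TPRG1L (3625002 to 3630127) lie 164, 248 and 270 kb away. AJAP1 (4654732 to 4792534) is the one named neighbour beyond the end of LINC01134, at 738 kb. The first 242 bases of WRAP73 and TP73 overlap on opposite strands, the antisense gene TP73-AS1 overlaps TP73 by 691 bases, and whether counting used strand is not stated, so reads of these overlaps may have gone to either gene.

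Reads assigned to genes numbered from 26237763 to 32954539 a library. Some libraries stood apart from their group. Blank replicate 1 correlated with blank replicates 2 and 3 at r = 0.935 and 0.937 (log2 scale), less than with OE-LINC01134 replicate 2 at 0.952, while blank replicates 2 and 3 reached 0.974 with each other. OE-LINC01134 replicate 2 reached 0.941 and 0.940 with replicates 1 and 3, which reached 0.977 with each other. The third siSRSF1-3 library correlated at 0.861 and 0.922 with its own group and at 0.958 to 0.960 with the siSRSF1-2 libraries. The median squared count difference was 2.13 times counting noise between blank replicates 2 and 3, and 1.88 times between OE-LINC01134 replicates 1 and 3. It was 16.9 to 18.3 times for the other pairs within these groups. The results of the neighbours in OE-LINC01134 are given with and without the libraries that stood apart. Without both blank replicate 1 and OE-LINC01134 replicate 2 only the close pairs are left, and the p-values then measure their small spread. The osteosarcoma line's mesenchymal genes VIM (68.7 to 248 FPKM) and COL1A1 (14.1 to 39.7 FPKM) were present in all 12 libraries, as were SPARC, FN1, RUNX2 and ALPL, while COL1A2 had at most 4 reads. Of the markers of other cell types, the epithelial genes EPCAM (64 to 162 reads) and CDH1 (57 to 166 reads) and the endothelial gene PECAM1 (28 to 78 reads) were detected in every library. KRT19 (epithelial) had at most 12 reads, CDH5 (endothelial) at most 36, the leukocyte genes PTPRC and CD3E at most 14 and 0, and the liver gene ALB at most 4. Their part in the results was not tested.

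The overexpressed RNA was checked first. LINC01134 had 0.791, 0.519 and 0.497 FPKM (a read density for each kilobase of gene length, corrected for library size) in the blank libraries, from 89, 60 and 66 reads. In the OE-LINC01134 libraries it had 891, 1279 and 878 FPKM, from 104967, 142038 and 101990 reads. The groups lay far apart, and the highest of the 3 values was in the library that stood apart. The mean rose 1687-fold, from 0.602 ± 0.164 to 1016 ± 228 FPKM (SD, n = 3). On the log2(FPKM + 0.1) scale the difference was 10.50 (SE 0.215, limma, adjusted p = 1.18e-05). LINC01134 took 0.377% to 0.532% of all reads on genes in these libraries and ranked between 22 and 25 of all genes by FPKM, and first among long intergenic non-coding RNAs. Reads from the native gene and from an introduced copy cannot be told apart in a table of whole genes, so the output of the native site is not known in these libraries.

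In the cells given an siRNA, LINC01134 stayed low. The siSRSF1-2 libraries held 0.728, 0.633 and 0.548 FPKM. The siSRSF1-3 libraries held 0.778, 1.11 and 0.592 FPKM. Both groups overlapped the blank libraries. The log2 difference from blank was 0.09 with siSRSF1-2 (95% confidence interval -0.51 to 0.68, adjusted p = 0.822) and 0.39 with siSRSF1-3 (-0.48 to 1.26, adjusted p = 0.489). With 60 to 115 reads a library, differences inside these intervals were not detectable.

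**Figure D1:**
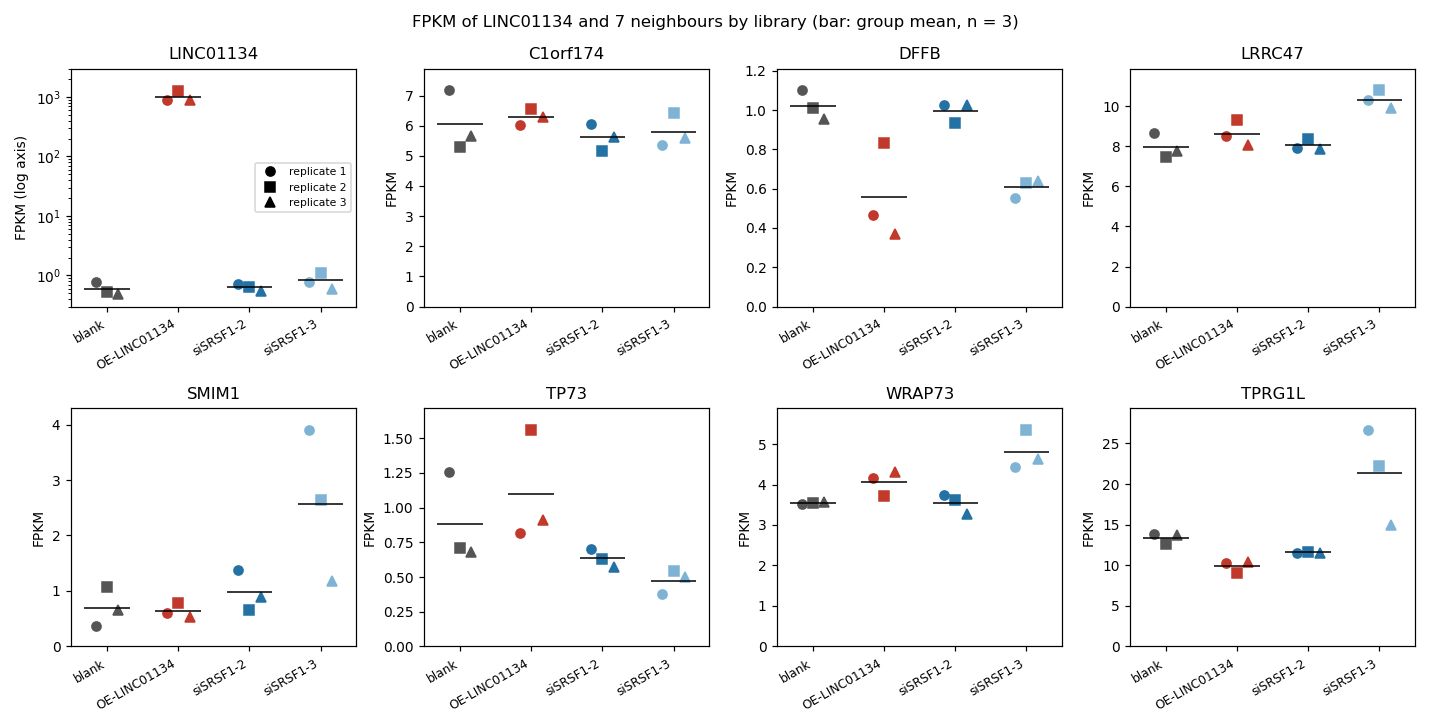
FPKM of LINC01134 (log axis) and 7 neighbours (linear axes from 0) in each of the 12 libraries, with markers for the replicates and a bar for the mean of 3. LINC01134 is high in the 3 OE-LINC01134 libraries (878 to 1279 FPKM), while C1orf174 stays between 5.17 and 7.18 FPKM in every library, DFFB is lower in OE-LINC01134 and in siSRSF1-3, and SMIM1 and TPRG1L are spread widely in siSRSF1-3.

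Since FPKM are per length, levels can be ordered between genes. In the blank cells TPRG1L was the highest member, at 13.4 ± 0.677 FPKM, followed by LRRC47 at 7.97 ± 0.639, C1orf174 at 6.04 ± 0.9996 and WRAP73 at 3.55 ± 0.0185 (SD, n = 3), and the libraries of these 4 did not overlap. DFFB (1.02 ± 0.0735 FPKM), TP73 (0.883 ± 0.327), SMIM1 (0.700 ± 0.356) and LINC01134 (0.602 ± 0.164) came last, and each overlapped the next in this order. AJAP1, which encodes a membrane protein of adherens junctions, had 1 read in blank replicate 1 and 0 reads in the other 11 libraries. Its RNA was not detected, and a count of 0 allows up to 3 reads a library, for counting error only. AJAP1 was not tested, and the other 7 neighbours passed the filter of a mean of 0.5 FPKM over the 12 libraries.

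None of the 7 tested neighbours was called in OE-LINC01134 against blank. A call needed an adjusted p under 0.05 over all 17538 genes tested and a log2 fold change past 1 in either direction. Across all genes 149 were called, 0.850% of those tested, 45 of them higher and the rest lower, and 1307 (7.45%) passed at an unadjusted p with the same minimum fold. The number of calls was not stable: it ranged from 1 (without blank replicate 2) to 1540 (without OE-LINC01134 replicate 2) when single libraries were left out, was 963 without blank replicate 1 and at most 9 without any of the others, and was 1 with near-identical replicates averaged. When all libraries were brought to an equal FPKM sum, 83 of 186 calls were higher. Of the 7 neighbours, 0 passed at an unadjusted p with the same minimum fold, and 0 were called by limma's voom on the reads recovered from the FPKM. The groups did not overlap for 3 of the 7 (TPRG1L, WRAP73 and DFFB), against 30.6% of all genes tested. The smallest p of an exact two-sided permutation test of 3 against 3 libraries is 0.1, which these 3 genes reached.

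C1orf174 encodes a protein of little known function, and its start faces that of LINC01134. It had 7.18, 5.29 and 5.66 FPKM in the blank libraries and 6.02, 6.55 and 6.29 in the OE-LINC01134 libraries. The groups overlapped, and blank replicate 1 was the highest of the 6. The log2 difference was 0.07 (SE 0.146, adjusted p = 0.793), and its 95% confidence interval of -0.28 to 0.42 corresponds to between 0.823 and 1.33 times the blank level. Read counts of 660 to 872 a library stood behind these values. The difference between the means was smaller than the spread of the blank libraries. Without blank replicate 1 and OE-LINC01134 replicate 2 the log2 difference was 0.17 (adjusted p = 0.0684).

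DFFB encodes the nuclease that cuts DNA between nucleosomes in apoptosis, once caspases have cleaved its inhibitor DFFA. It had 1.10, 1.01 and 0.956 FPKM in the blank libraries (118, 111 and 121 reads). The OE-LINC01134 libraries had 0.464, 0.832 and 0.371 FPKM (52, 88 and 41 reads). All 3 lay below the blank libraries, with replicate 2 the nearest to them. The log2 difference was -0.84 (SE 0.315, 95% confidence interval -1.59 to -0.09, adjusted p = 0.160), which did not pass the threshold. Without OE-LINC01134 replicate 2 the difference was -1.12 and passed (adjusted p = 0.0228), and without that library and blank replicate 1 it was -1.07 (adjusted p = 0.0116). Between the libraries that stood apart, OE-LINC01134 replicate 2 and blank replicate 1, the difference was -0.37. Over all alternatives the adjusted p ranged from 0.0116 to 0.784. What sets these libraries apart was not tested.

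DFFA, the inhibitor of DFFB, had a log2 difference of -0.22 (SE 0.140, adjusted p = 0.345).

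TPRG1L encodes a protein of synaptic vesicles. It had 13.8, 12.6 and 13.8 FPKM in the blank libraries and 10.3, 9.08 and 10.4 in the OE-LINC01134 libraries. Every OE-LINC01134 library lay below every blank library. The log2 difference was -0.43 (SE 0.111, 95% confidence interval -0.69 to -0.16, adjusted p = 0.0885), the smallest adjusted p among the 7 neighbours. It lay between -0.49 and -0.34 in every alternative, so the minimum fold was not reached in any. Without blank replicate 1 and OE-LINC01134 replicate 2 it was -0.34, with an adjusted p of 0.00698 from the close pairs alone.

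WRAP73, which encodes a WD-repeat protein of the centrosome, and LRRC47, a leucine-rich repeat protein, were not called. WRAP73 had 3.52, 3.55 and 3.56 FPKM in blank and 4.16, 3.71 and 4.32 in OE-LINC01134, which did not overlap, and the log2 difference was 0.19 (95% confidence interval -0.11 to 0.48, adjusted p = 0.364). Without the pair of libraries that stood apart it was 0.25, under the minimum fold, with an adjusted p of 0.0231 from the close pairs alone. LRRC47 had 8.68, 7.45 and 7.79 FPKM in blank and 8.51, 9.31 and 8.06 in OE-LINC01134, which overlapped, and the log2 difference was 0.11 (-0.17 to 0.40, adjusted p = 0.570), or 0.12 without that pair.

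TP73 encodes a transcription factor of the p53 family. It had 1.26, 0.708 and 0.683 FPKM in blank and 0.816, 1.56 and 0.910 in OE-LINC01134. The highest value of each group came from the library that stood apart from it. The log2 difference was 0.28 (95% confidence interval -0.53 to 1.09, adjusted p = 0.629). It was 0.02 without OE-LINC01134 replicate 2, 0.54 without blank replicate 1 and 0.28 without both. TP73-AS1 had a mean of 1.38 ± 0.0768 FPKM in blank and 1.40 ± 0.0285 in OE-LINC01134 (SD, n = 3).

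SMIM1, the membrane protein that carries the Vel blood group antigen, rested on 10 to 30 reads a library in these groups. It had 0.368, 1.08 and 0.654 FPKM in blank and 0.598, 0.784 and 0.535 in OE-LINC01134. The groups overlapped, and the interval of the log2 difference (-0.03, from -0.96 to 0.90) was too wide to show a change under 1 in either direction. It was -0.16 without OE-LINC01134 replicate 2, -0.36 without blank replicate 1 and -0.50 without both (adjusted p = 0.194).

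The whole stretch of 1 Mb on each side of LINC01134 was then counted, so that no gene was left out. It held 38 other genes, of which 6 had 0 reads in all 12 libraries, 16 had some reads but did not pass the filter and 16 were tested. Of the tested genes, 14 lay before the start of LINC01134 and 2 beyond its end. None of the 16 was called, 6 had a positive and 10 a negative log2 difference, and 6 did not overlap between groups, near the share of 30.6% over all genes. One of these 6, MIR551A, rested on 1 to 3 reads a library. Their median log2 difference was -0.03, beside 0.05 over all genes tested, whose middle 50% ran from -0.27 to 0.33. With all libraries brought to an equal FPKM sum, the median of all genes moved to 0.14 and that of the 16 to 0.05.

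Beyond the end of LINC01134, the nearest genes LINC01346 and LINC01345 had at most 2 and 5 reads in any library. A long non-coding gene 58.9 kb away (ENSG00000284668) was the most abundant gene of the region by mean FPKM, apart from LINC01134 itself. It had 17.8, 22.4 and 23.2 FPKM in blank and 21.4, 19.6 and 23.4 in OE-LINC01134, with a log2 difference of 0.03 (95% confidence interval -0.30 to 0.36, adjusted p = 0.910). ENSG00000284703, at 95.7 kb, had a log2 difference of -0.25 (-1.09 to 0.59, adjusted p = 0.680).

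The largest difference of the region was that of MEGF6, at 289 kb before the start of LINC01134 (3489920 to 3611495, minus strand), which encodes a protein with many EGF-like repeats. It had 1.92, 3.44 and 2.98 FPKM in blank and 0.579, 1.08 and 0.701 in OE-LINC01134. Every OE-LINC01134 library lay below every blank library. The log2 difference was -1.70 (SE 0.303, 95% confidence interval -2.42 to -0.98), and at an adjusted p of 0.0529 it just missed the threshold. It was the 1 gene of the 16 past the unadjusted threshold. Without blank replicate 1 it passed (-1.94, adjusted p = 0.02), as it did without OE-LINC01134 replicate 2 (-1.93, adjusted p = 0.0127) and without both (-2.16, adjusted p = 0.000748). Across all genes tested, 963, 1540 and 2446 were called in these settings, in this order. The last setting rested on close pairs of libraries alone. Between both libraries that stood apart the difference was -0.78. The adjusted p ranged from 0.000748 to 0.617 over the alternatives.

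MIR551A lies within MEGF6 on the same strand and held 1 to 3 reads a library in blank and OE-LINC01134, and these cannot be told apart from reads of MEGF6 itself. The antisense gene ENSG00000238260, whose start lies 258 bases from that of TPRG1L, had 19, 19 and 21 reads in blank and 18, 16 and 12 in OE-LINC01134. ENSG00000272153, antisense within LRRC47, had a log2 difference of -0.37 (-1.15 to 0.41).

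**Figure D2:**
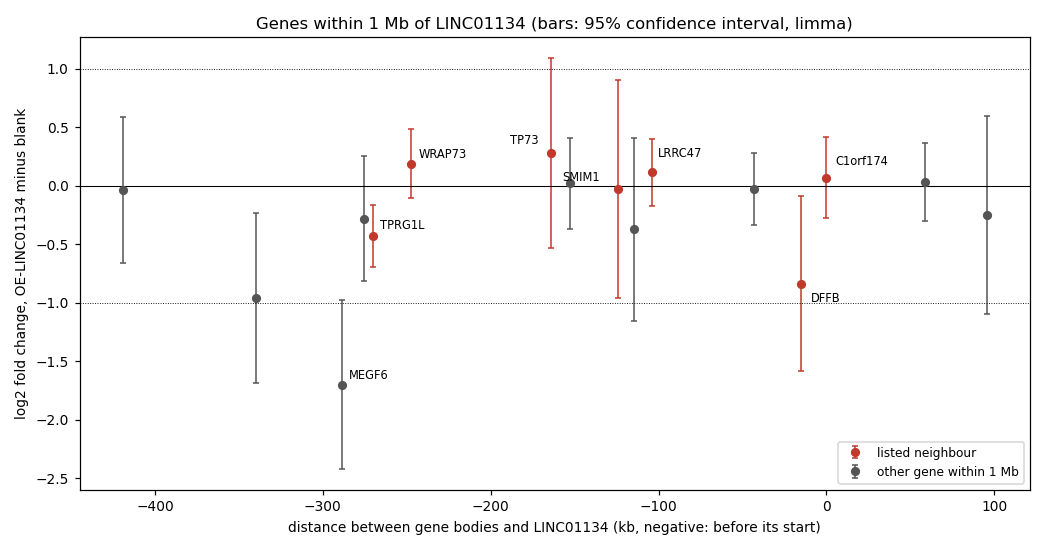
Log2 fold change of OE-LINC01134 against blank for the 16 tested genes within 1 Mb of LINC01134, against the distance between gene bodies in kb (negative before the start of LINC01134). Points are estimates, bars are 95% confidence intervals from limma, and dotted lines mark 1 and -1. C1orf174, at 0.078 kb, sits at 0.07, and MEGF6 is the lowest at -1.70.

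**Figure D3:**
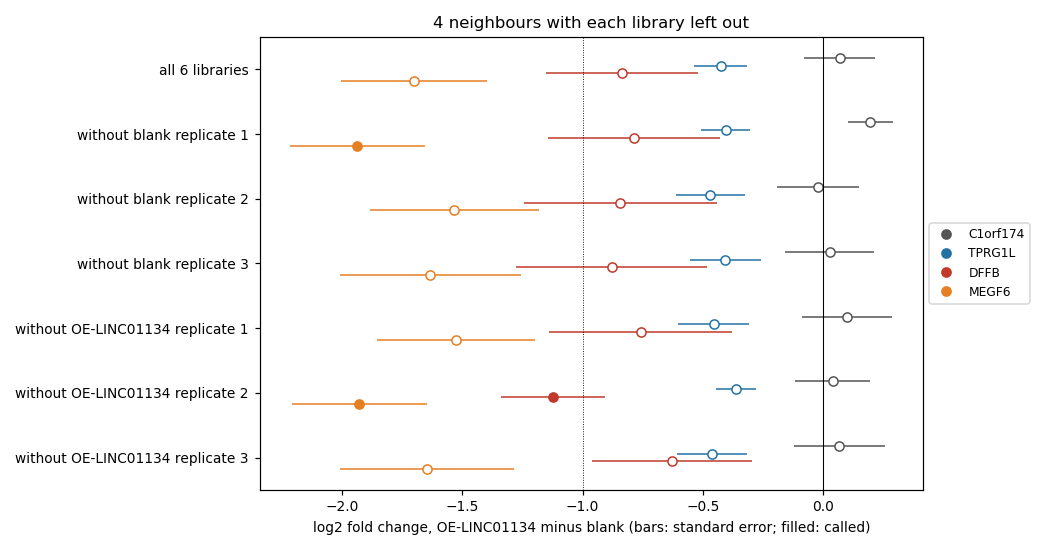
Log2 fold change of OE-LINC01134 against blank (x axis, bars are standard errors) for C1orf174, TPRG1L, DFFB and MEGF6 with all 6 libraries and with each library left out (y axis). Filled points passed both thresholds: DFFB did without OE-LINC01134 replicate 2, and MEGF6 did without that library or without blank replicate 1.

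The siRNA libraries show how the same genes varied when LINC01134 was not overexpressed. All 3 comparisons share the blank libraries, so their values are not independent of each other. SRSF1, the target of the siRNAs, fell from 25.4 ± 9.14 FPKM in blank to 7.32 ± 0.202 with siSRSF1-2 (SD, n = 3, limma log2 difference -1.72, adjusted p = 0.00500). With siSRSF1-3 it was 6.01 ± 2.39 FPKM (SD, n = 3), a log2 difference of -2.09 at an adjusted p of 0.0518 by limma. In OE-LINC01134 it was 30.6 ± 1.09 FPKM.

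With siSRSF1-2, 868 of all genes tested were called (4.95%), and none of the 7 neighbours was, at an unadjusted p or by voom either. C1orf174 had a log2 difference of -0.09, DFFB of -0.03, LRRC47 of 0.02, WRAP73 of -0.00, SMIM1 of 0.47 and TP73 of -0.38. TPRG1L had 11.5, 11.6 and 11.6 FPKM, just below the blank libraries, and a log2 difference of -0.21 (SE 0.0637, adjusted p = 0.0584). It was the 1 neighbour of 7 whose groups did not overlap, against 49.5% of all genes. DFFB had 1.03, 0.936 and 1.03 FPKM and overlapped blank.

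MEGF6 was the 1 gene of the 16 in the region that was called with siSRSF1-2. It rose to 8.05, 8.86 and 8.82 FPKM, above all blank libraries, with a log2 difference of 1.63 (SE 0.209, 95% confidence interval 1.12 to 2.14, adjusted p = 0.00437). In one fit over all 4 groups its adjusted p was 0.0545. Averaging near-identical replicates left 1 value for siSRSF1-2, so that setting cannot decide the call. In OE-LINC01134 the same gene lay below blank (-1.70, not called).

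With siSRSF1-3, 221 genes were called (1.26%), and none of the 7 neighbours was, though SMIM1 passed at an unadjusted p. The groups did not overlap for 6 of the 7, against 37.2% of all genes. C1orf174 was the exception, with 5.36, 6.44 and 5.59 FPKM and a log2 difference of -0.05. The deposited scaling raised siSRSF1-3 replicate 1 relative to its own read total (implied library size 0.712 of that total), and the library that stood apart, replicate 3, lay nearest to blank for SMIM1 and TPRG1L.

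SMIM1 had 3.90, 2.65 and 1.18 FPKM with siSRSF1-3, from 75, 66 and 36 reads. All 3 lay above the blank libraries, and the log2 difference was 1.69 (SE 0.516, 95% confidence interval 0.47 to 2.92, adjusted p = 0.107). Without replicate 3 it passed, at 2.15 (adjusted p = 0.0189), and without replicate 3 and blank replicate 1 it was 1.82 (adjusted p = 0.0306). Calls across all genes also rose in both settings, as given with the alternatives below. TPRG1L had 26.6, 22.3 and 15.0 FPKM and a log2 difference of 0.63 (adjusted p = 0.148), or 0.86 without replicate 3 (adjusted p = 0.0142, under the minimum fold). With libraries scaled by their own totals of reads, TPRG1L was at 0.37 and the median of all genes at -0.26.

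DFFB was low in all 3 siSRSF1-3 libraries, at 0.554, 0.630 and 0.638 FPKM, with a log2 difference of -0.67 (SE 0.276, adjusted p = 0.168). TP73 had 0.377, 0.541 and 0.503 FPKM and a log2 difference of -0.74 (SE 0.374, adjusted p = 0.223). LRRC47 (10.3, 10.8 and 9.91 FPKM) and WRAP73 (4.42, 5.34 and 4.64 FPKM) lay above blank, with log2 differences of 0.37 and 0.42, but at -0.07 and -0.01 when all libraries were brought to an equal FPKM sum, where the median of all genes was -0.43. MEGF6 had 2.01, 2.97 and 7.64 FPKM, with the high value in the replicate that resembled the siSRSF1-2 libraries, and its log2 difference was 0.39 with it and -0.14 without it. Over the 16 genes of the region the median log2 difference was 0.01 with siSRSF1-2 and 0.15 with siSRSF1-3, beside 0.02 and -0.01 over all genes.

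**Figure D4:**
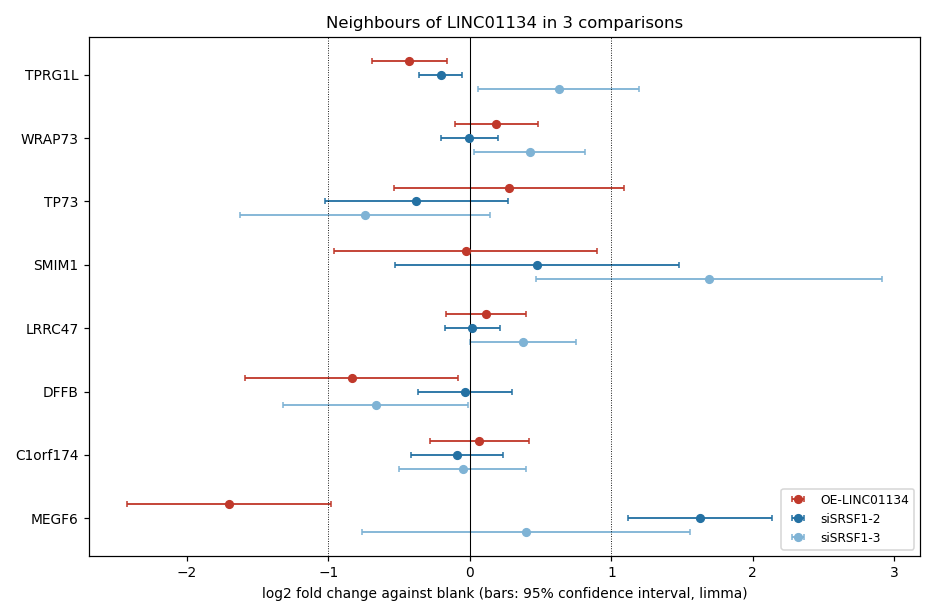
Log2 fold change against blank (x axis, bars are 95% confidence intervals from limma, dotted lines at 1 and -1) of 7 neighbours and MEGF6 (y axis) in the 3 comparisons, shown by colour. C1orf174 lies near 0 in all 3, DFFB is at -0.84 in OE-LINC01134 and -0.67 in siSRSF1-3, and MEGF6 is at -1.70 in OE-LINC01134 and 1.63 in siSRSF1-2.

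Genes that work with the neighbours were followed in 4 lists. In OE-LINC01134, 0.850% of all genes tested were called. Of the apoptotic nuclease list around DFFB, 16 genes were tested and 1 was called in OE-LINC01134, with a list median log2 difference of -0.08. It was ENDOG, a mitochondrial endonuclease, which fell from 2.97 ± 0.465 to 1.23 ± 0.190 FPKM (SD, n = 3, limma log2 difference -1.21, SE 0.193, adjusted p = 0.0485). The call was lost when any of blank replicates 2 and 3 or OE-LINC01134 replicates 1 and 3 was left out (adjusted p = 0.206 to 0.232). Of the p53 family and its direct targets, 26 were tested and 0 called (median 0.27). Of a list of centriole genes that holds WRAP73, 15 were tested and 0 called (median 0.46), and of the adherens junction partners of AJAP1, 9 were tested and 0 called (median -0.04). The median of all genes was 0.05. At an unadjusted p, 1 centriole gene and 0 of the p53 and adherens junction genes passed in OE-LINC01134, beside 7.45% of all genes. Voom gave the same counts for these lists. In the siRNA comparisons no list had a called gene by limma on log2(FPKM + 0.1). By voom, siSRSF1-3 had 1 called gene in each of the nuclease, centriole and adherens junction lists and none in the p53 list. With siSRSF1-2 voom called none in any list. At an unadjusted p, 0 list genes passed with siSRSF1-2 (6.49% of all genes did), and with siSRSF1-3 there were 2 in the nuclease list, 2 in the p53 list, 1 in the centriole list and 1 in the adherens junction list, beside 14.8% of all genes.

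Across the 12 libraries, the 5 genes whose log2 level followed LINC01134 most closely were EZH2 (Pearson r = 0.952), CD27-AS1 (0.951), PRIMPOL (0.949), INHBE (0.947) and ZNF597 (0.942), none of them on chromosome 1. The 12 points share 1 group in which LINC01134 was overexpressed, and in all 5 genes the 3 OE-LINC01134 libraries held the highest values. INHBE had 36.6, 20.3 and 35.7 FPKM in OE-LINC01134 against 3.80, 5.41 and 5.01 in blank, and was called (log2 difference 2.64, adjusted p = 0.0199). CD27-AS1 had 4.36, 5.04 and 4.73 FPKM against 1.63, 2.01 and 1.72, and was called (1.35, adjusted p = 0.0233). Both calls were lost when any of the same 4 libraries was left out (adjusted p = 0.104 to 0.172). Among the neighbours r was 0.41 for C1orf174, 0.60 for TP73, 0.14 for WRAP73, 0.0030 for LRRC47, -0.35 for SMIM1, -0.54 for TPRG1L and -0.61 for DFFB, and it was -0.81 for MEGF6.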

How the data were processed

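RNA-Seq libraries of U2OS cells (12, in 4 groups of 3 set by the sample labels) were analysed. The authors deposited FPKM per gene and library with gene lengths and coordinates. The study's methods compared groups with DESeq2, and the aligner, counter and human build are not given in the sources used here (the submitters' processing notes name GRCm38 and mm10). The labels and the supplementary methods name different library kits. FPKM times gene length gave whole multiples of one step (largest deviation 0.000153 reads) and so the reads per gene. The FPKM were scaled by library sizes other than the totals of reads on genes (0.712 to 1.09 times them). The method of this scaling was not tested.

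Symbols were matched through full names, and 1 of 105 stayed unmatched. Each group was compared with blank by limma (version 3.58.1, R 4.3.3, eBayes with trend) on log2(FPKM + 0.1), over 17538 genes with a mean of at least 0.5 FPKM. Calls required a log2 fold change past 1 in size, and p below 0.05 after Benjamini-Hochberg adjustment. A fold change on this scale understates that of low genes. Single genes also had exact two-sided permutation tests. On data simulated for OE-LINC01134 against blank, 189 of 200 genes changed by 2 on the log2 scale were called, with 9 false calls. The simulated libraries were drawn independently and none stood apart from its group. That share therefore does not give the sensitivity in the real libraries, nor for smaller differences.

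Named genes were the members, tested genes within 1 Mb, SRSF1, cell type markers, called list members and the 5 genes most like LINC01134. DFFA, LINC01346 and LINC01345 were named outside this rule, after their values were seen, and some genes of the region are not reported here. The members and lists were chosen with earlier results of these data known. Alternatives were other pseudocounts, filters, scalings, limma's voom, no trend, one fit over all groups, a replicate block and the omission of libraries.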

Additional observations from a re-analysis of the deposited data

Results flagged for a closer look

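TPRG1L differed from blank in opposite directions with the siRNAs. With siSRSF1-2 all 3 libraries lay below the blank mean, by -0.21 on the log2 scale on average, and with siSRSF1-3 all 3 lay above it, by 0.63 on average. Over the alternatives the log2 difference ranged from -0.25 to -0.08 with siSRSF1-2 and from 0.18 to 0.88 with siSRSF1-3. The difference between the siRNAs was not tested, and neither comparison with blank passed the threshold.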

How the results depend on the processing

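The rise of LINC01134 kept its direction and call in all 18 alternatives (log2 difference 9.29 to 10.71). Of the values of single genes, 480 kept their side of the threshold and direction, 15 passed only under an alternative, 26 no longer passed and 29 changed sign. The cause was not tested in any case.

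For OE-LINC01134 the 149 calls became 81 with no filter, 307 with voom, 689 in one fit, 2446 without blank 1 and OE-LINC01134 2, 1 with near-identical replicates averaged and 1307 at an unadjusted p, and ranged from 1 to 1540 with a library left out (963 without blank 1, 1540 without OE-LINC01134 2, at most 9 without any other). Called genes within 1 Mb were 1 with voom, 1 in one fit (MEGF6 in both), 2 without both libraries (with DFFB), 1 at an unadjusted p and 0 to 2 with a library left out. Their median was 0.0478 rescaled to the same sum, -0.123 without both libraries and -0.146 to 0.01 with a library left out. Of the calls, 30.2% were higher, and 44.6% after rescaling.

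For siSRSF1-2 the 868 calls became 379 with a pseudocount of 1, 314 in one fit and 4702 with no minimum fold. They ranged from 534 to 1188 with a library left out (564 without siSRSF1-2 2, 534 without siSRSF1-2 3). The averaged setting left 1 value for siSRSF1-2, so only its effect sizes are given. Called genes within 1 Mb were 0 in one fit, 2 at an unadjusted p, 2 with no minimum fold and up to 2 with a library left out. Their median was 0.137 rescaled, where the median of all genes was 0.15 and the share of higher calls went from 44.8% to 64.0%.

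For siSRSF1-3 the 221 calls became 63 with a pseudocount of 0.01, 116 with no filter, 69 on own totals, 1 rescaled, 624 with voom, 2422 in one fit, 3697 without blank 1 and siSRSF1-3 3 and 2596 at an unadjusted p, and ranged from 0 to 4184 with a library left out (4184 without siSRSF1-3 3, 29 without blank 1, 13 without siSRSF1-3 1, 0 without any other). Called genes within 1 Mb were 1 in one fit, without both libraries and at an unadjusted p, and up to 1 with a library left out. Their median was -0.0038 with no filter, 0.373 at a minimum of 1 FPKM, -0.0863 on own totals, -0.248 rescaled and -0.0061 to 0.237 with a library left out. The share of higher calls went from 26.2% to 15.9% on own totals.

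Signs changed under an alternative for the following genes (ranges are those with a library left out). In OE-LINC01134 these were C1orf174 (-0.0199 to 0.1963) and SMIM1 (0.0475 rescaled, 0.2078 averaged, -0.3645 to 0.2998). With siSRSF1-2 they were LINC01134 (-0.0061 averaged, -0.0197 to 0.2697), LRRC47 (-0.0134 averaged, -0.0291 to 0.0803), C1orf174 (0.0368 rescaled, -0.1813 to 0.035), WRAP73 (0.0392 on own totals, 0.1245 rescaled, -0.0437 to 0.0497) and DFFB (0.0085 on own totals, 0.0887 rescaled, -0.0754 to 0.0176). With siSRSF1-3 they were LRRC47 (-0.0672), WRAP73 (-0.0111) and MEGF6 (-0.0266) rescaled, C1orf174 (0.1004 without both libraries, -0.1392 to 0.0771) and MEGF6 (-0.3755 without both libraries, -0.1403 to 0.7983).

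Replicate numbers did not pair the libraries in any comparison with blank (correlations of the deviations of same-numbered libraries of blank and the other group -0.08 to 0.04). With the replicate block 4 genes were called in OE-LINC01134 and 0 in siSRSF1-3, the calls of ENDOG, INHBE and CD27-AS1 were lost, and the count for siSRSF1-2 stayed within 1.5 times. Depth limited SMIM1, LINC01134 outside its own group and AJAP1.

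Alternatives that left out 2 libraries together or averaged near-identical replicates were chosen after seeing the data.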
